A study of Mus musculus with 76 samples.

Results

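The genes described here are 40 genes of the cell division cycle, from the G1 cyclins to the proteins that separate chromosomes, taken as a list of symbols with 1 probe set per gene, the one of highest mean. Of the 40, 39 were measured among the 18194 genes that the arrays name, and 38 were among the 13868 genes bright enough to be tested. Ccnb1 has no value because its probe sets name several genes. Tyms, thymidylate synthase, had a mean log2 value of 4.21 over all arrays (range 3.48 to 4.81), close to the 2.95 of control probe sets for a bacterial gene, and was not tested. The arrays measured total RNA of mouse tumours of strain C57BL/6. All tumours came from 1 genetic model, first driven by HER2(V659E), an activated receptor tyrosine kinase whose expression depended on doxycycline. Doxycycline was withdrawn in all 13 groups to silence it, and 1 of 13 genes was then introduced. The groups are named after that gene: ErbB3, FAK1, FGFR2aIIIb, FGFR2aIIIc, FGFR3, HER2, MAP3K11, MAP3K7, PIP5K1B, RON+MSP, RONd160, RSK2 and TNK2. FAK1 has 4 arrays and each of the other groups 6, which makes 76 arrays. The 6 MAP3K11 arrays are the only ones labelled with cachexia, the wasting of body tissue that accompanies some cancers, so the introduced gene and that status cannot be told apart. No group without an introduced gene was analysed here, so each group is set against the mean of the other 12. The labels give each array a label T1, T2 or T3 without defining it and call the arrays biological replicates without naming animals, cell lines or clones, so the p-values rest on array-to-array spread, part of which may be technical.

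A dividing cell copies its DNA once in S phase and shares the copies out in mitosis. Cyclin D1 and the E cyclins, with their kinases, release E2F transcription factors, which switch on the genes for replication. The genes of G2 and mitosis are switched on later by B-MYB (Mybl2) and FOXM1 together with the MuvB complex. They act through a short element called CHR (cell cycle genes homology region), often with CCAAT boxes bound by NF-Y. Most of these transcripts are abundant only in cycling cells, so in tumour tissue their level is widely used as a measure of proliferation. In RNA from whole tumours, fewer cycling cells and less RNA per cycling cell cannot be told apart.

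Most of these genes moved together across the arrays, while Ccne1 and a few others did not. Their promoters are described here, and whether motifs go with expression was not tested. RefSeq windows of 300 bases on GRCm38.p6, from 250 bases before the transcription start to 50 after it, matched 32 of the 40 genes. The motifs searched on both strands were TTTGAA and TTTAAA for CHR, CCAAT for the CCAAT box, and TTTCGCGC and TTTGGCGC for E2F; TTTAAA reads the same on both strands, and matches of different motifs may share bases. The CHR letters were found in 21 of the 32 windows (65.6%), against 27.6% of all 32851 windows of this length. CCAAT was found in 71.9% of the windows against 37.4%, CHR and CCAAT together in 56.2% against 10.7%, and either E2F motif in 12.5% (4 windows) against 0.813%. The CHR letters were present in 6 of 6 windows of the chromosomal passenger, centromere and chromosome genes and in 5 of 7 of the mitotic cyclin and kinase genes, but in 2 of 6 of the replication licensing genes, where 3 of 6 windows held an E2F motif. A match is a string of letters and not a measured binding site. Melk, Mad2l1 and Cdc6 held no match, though their correlations with the mean of the other genes were 0.94, 0.9 and 0.86. Mcm2, lower in the MAP3K11 group, held CHR and CCAAT but no E2F motif, and Mybl2, higher there, held none. The windows below are therefore examples. In the sequences below, capitals mark matches on either strand, and all 5 genes lie on the minus strand. Ccnb2 (chr9:70421505-70421804) stands for the gene that followed the others most closely and Cdk1 (chr10:69352863-69353162), the kinase it activates, for a gene near the median of the list, Aurka (chr2:172370521-172370820) for a mitotic gene higher in the MAP3K11 group, Mcm6 (chr1:128359656-128359955) for a replication gene lower there, and Ccne1 (chr7:38107441-38107740) for the gene that followed the others least.
Ccnb2: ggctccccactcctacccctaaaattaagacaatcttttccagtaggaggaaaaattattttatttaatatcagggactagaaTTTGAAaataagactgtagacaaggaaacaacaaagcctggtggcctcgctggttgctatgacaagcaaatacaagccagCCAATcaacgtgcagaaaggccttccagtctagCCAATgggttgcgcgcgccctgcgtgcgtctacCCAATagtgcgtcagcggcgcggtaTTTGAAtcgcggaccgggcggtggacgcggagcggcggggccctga
Cdk1: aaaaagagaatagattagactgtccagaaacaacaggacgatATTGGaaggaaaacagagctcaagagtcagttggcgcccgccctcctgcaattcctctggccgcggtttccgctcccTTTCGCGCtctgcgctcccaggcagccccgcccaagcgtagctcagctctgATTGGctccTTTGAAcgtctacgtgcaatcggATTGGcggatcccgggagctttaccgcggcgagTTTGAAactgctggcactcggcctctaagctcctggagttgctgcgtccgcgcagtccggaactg
Aurka: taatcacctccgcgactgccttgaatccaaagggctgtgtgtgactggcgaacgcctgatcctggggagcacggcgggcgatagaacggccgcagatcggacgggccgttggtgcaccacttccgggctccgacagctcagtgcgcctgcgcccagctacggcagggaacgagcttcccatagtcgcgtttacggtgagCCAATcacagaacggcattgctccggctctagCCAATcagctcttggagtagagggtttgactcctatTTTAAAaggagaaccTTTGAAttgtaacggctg
Mcm6: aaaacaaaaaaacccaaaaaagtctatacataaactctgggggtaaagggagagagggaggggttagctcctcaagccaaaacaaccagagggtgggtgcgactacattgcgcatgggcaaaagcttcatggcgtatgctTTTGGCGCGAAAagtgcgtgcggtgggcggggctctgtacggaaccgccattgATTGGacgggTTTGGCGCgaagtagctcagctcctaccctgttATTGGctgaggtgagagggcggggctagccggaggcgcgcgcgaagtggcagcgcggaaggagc
Ccne1: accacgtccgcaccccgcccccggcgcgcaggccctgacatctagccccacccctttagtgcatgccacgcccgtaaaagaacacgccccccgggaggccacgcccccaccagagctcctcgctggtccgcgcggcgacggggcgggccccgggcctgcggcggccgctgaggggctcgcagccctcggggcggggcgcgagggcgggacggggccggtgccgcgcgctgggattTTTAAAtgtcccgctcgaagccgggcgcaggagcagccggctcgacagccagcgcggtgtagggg

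In Ccnb2 a CHR match lay at bases 4 to 9 after the start, downstream of 3 CCAAT boxes. The CHR match of Cdk1 nearest its start began 15 bases before the start, and this window also held 1 E2F motif. Aurka had 2 CHR matches after its start and 2 CCAAT boxes before it. Mcm6 had 3 E2F matches, 2 of which overlap on opposite strands, and no CHR match. Ccne1 had 1 TTTAAA and neither CCAAT nor an E2F match.

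Arrays of the same group came in pairs that resembled each other. The 38 pairs were matched within each group on the medians of the 19 autosomes. Their median correlation in those medians was 0.957 (lowest 0.47), against 0.162 for other arrays of the same group. The matching chose the pairs by these correlations, so that contrast is partly built in. In the rest of expression, with the chromosome medians subtracted, the median correlation was 0.771 within pairs and 0.271 for other arrays of the same group. Both arrays of a pair always had different T labels. The pairs, which no label names, entered every main test as a random block with a correlation of 0.628. Array medians lay between 5.45 and 5.56 on the log2 scale, and no arrays were identical. Mouse probe sets for Map3k7, Map3k11 and Erbb2 overlapped between the group of that name and all other arrays (Map3k11 7.01 to 7.31 against 6.79 to 7.43), and since the species of the introduced genes is not given here, they do not check the labels. Of the epithelial markers, the keratin Krt8 was at 10.42 to 13.35 over the 76 arrays, but Krt18 ranged from 5.22 to 13.48 (median 12.36) and Cdh1 from 3.73 to 8.91 (median 7.15), and the mean of the epithelial markers from -1.26 to 0.94. The mean of 16 skeletal muscle markers ranged from -1.96 to 3.88 log2 units around its mean over all arrays, the scale of all marker means given here. The libraries that stand apart for the cell cycle genes are T1 replicate 2 and T3 replicate 1 of MAP3K7, which form 1 of the pairs. The main counts of the 38 genes that rest on them are given with and without them. Other values use all 76 arrays unless another set is named.

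Over the 13 groups, 27 of the 38 genes (71.1%) differed by limma's moderated F test at an adjusted p under 0.05, where 54% of all genes tested did. Without the 2 MAP3K7 arrays 14 genes (36.8%) passed, against 56.4% of all genes, and when the arrays of each pair were averaged 6 of the 38 passed. The share of all genes was not counted in that fit or in the other alternative fits below, apart from those without the 2 arrays. The range between the highest and the lowest group mean had a median of 0.74 log2 units for the 38 genes and 0.55 for all genes, and without the 2 arrays 0.53 and 0.55. Of 88 other cell cycle genes, 62 passed.

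The 5 largest F statistics belonged to a G1 cyclin, a topoisomerase, 2 helicase subunits and an S phase cyclin. Ccnd1, cyclin D1, which starts the G1 programme in response to growth signals, had an F of 4.47 (limma, adjusted p = 0.000233); its group means ran from 11.59 in MAP3K11 and 11.85 in MAP3K7 to 12.33 in FAK1 and 12.34 in HER2. Top2a, the topoisomerase that untangles sister chromosomes, ran from 10.67 in MAP3K7 to 11.46 in FGFR2aIIIb. Mcm6 and Mcm2, subunits of the replicative helicase, had the same 2 groups lowest: Mcm6 was at 10.42 in MAP3K11 and 10.51 in MAP3K7, and Mcm2 at 9.60 in MAP3K7 and 9.61 in MAP3K11, differences far within the SD of the MAP3K7 arrays (0.40 and 0.42). Ccne1, cyclin E1, which drives entry into S phase, ran from 7.69 in FGFR2aIIIb to 8.20 in RSK2 and 8.66 in MAP3K11. For Ccne1 the highest group therefore stood 0.67 above the mean of the other 12, while for Mcm6 the lowest 2 groups stood below the rest. For Ccnd1, with all arrays, only MAP3K11 did so, with a difference of -0.58 from the mean of the other 12. MAP3K7 (-0.3) lay close to ErbB3 (-0.25). The MAP3K7 means of Ccnd1 and Mcm6 both depended on the 2 low MAP3K7 arrays, which were high for Ccnd1 (12.55 and 12.33). The other 4 MAP3K7 arrays lay at 11.44 to 11.68 for Ccnd1. Without the 2 low arrays the MAP3K7 difference by limma was -0.58 for Ccnd1 and -0.17 for Mcm6. The smallest statistics belonged to Rrm1, the large subunit of ribonucleotide reductase (F = 1, limma adjusted p = 0.548), the licensing factor Cdc6, the centromeric histone Cenpa, the mitotic kinase Plk1 and the helicase subunit Mcm5. For all 5 of these the lowest mean was in MAP3K7 (Rrm1 10.34, Cdc6 7.66, Cenpa 9.94, Plk1 8.90, Mcm5 9.78) and the highest in PIP5K1B, or for Cdc6 in HER2 (8.32). These low means rested largely on the 2 low arrays. The other 4 MAP3K7 arrays differed from the mean of the other 12 groups by 0.01 for Rrm1 and 0.07 for Mcm5. They differed by -0.02 for Cenpa, -0.04 for Plk1 and -0.23 for Cdc6.

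**Figure D1:**
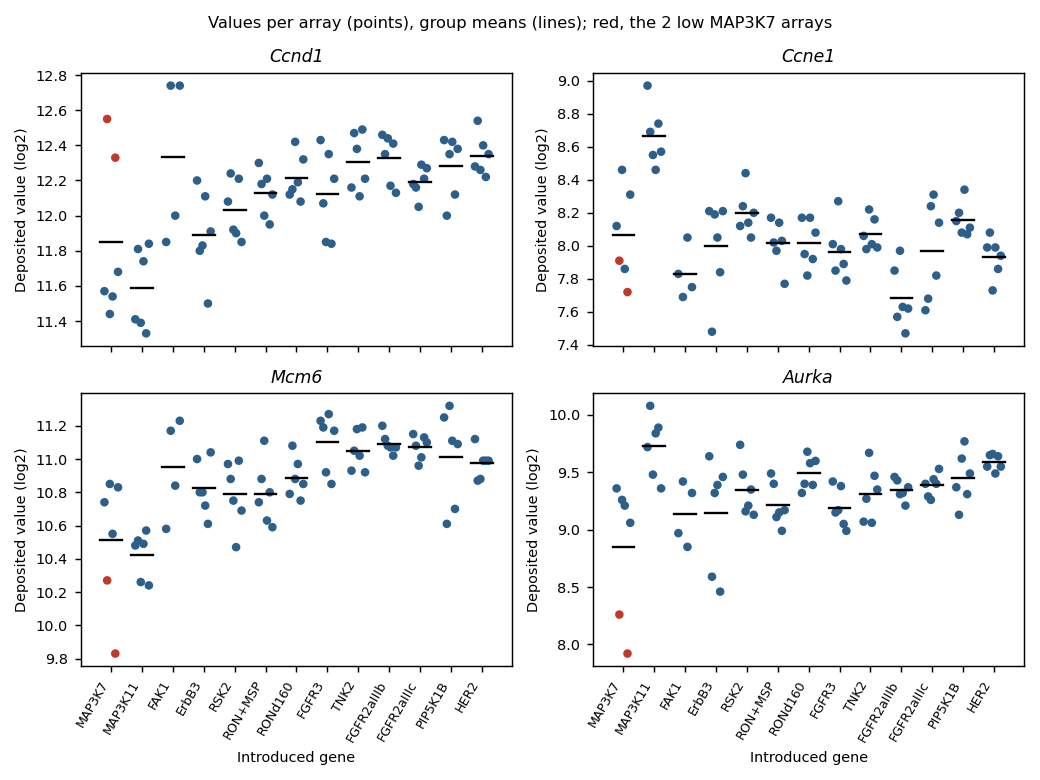
Deposited log2 values of Ccnd1, Ccne1, Mcm6 and Aurka in each of the 76 arrays (points), with group means (lines) and the groups ordered by the mean of the 38 genes. The MAP3K11 arrays lie between 11.33 and 11.84 for Ccnd1, at the low end, and between 8.46 and 8.97 for Ccne1, at the high end; the 2 low MAP3K7 arrays (red) are low for Mcm6 and Aurka and high for Ccnd1.

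MAP3K7 had the lowest mean for 33 of the 38 genes, MAP3K11 for 4 (Ccnd1, Mcm6, Pcna and Tk1) and FGFR2aIIIb for 1 (Ccne1). Without the 2 low arrays MAP3K7 was lowest for 8 genes, MAP3K11 for 14, FAK1 for 8, and ErbB3, RSK2, FGFR2aIIIb and RON+MSP for the other 8, so the shared lowest group rested on that pair. The highest mean was spread over 9 groups, with HER2 for 12 genes and PIP5K1B for 9. MAP3K11 had the highest for 5, namely Ccne1, E2f1, Aurka, Mybl2 and Tpx2. Taking each gene relative to its mean over all arrays, the mean of the 38 genes was -0.47 ± 0.55 in MAP3K7 (SD, n = 6; -0.13 ± 0.09 without the 2 low arrays, SD, n = 4), -0.10 ± 0.15 in MAP3K11 (SD, n = 6), and 0.16 ± 0.05 in HER2 (SD, n = 6), with the other 10 groups between -0.06 and 0.16. Within HER2 the arrays lay between 0.09 and 0.22, the narrow end of the spread. Within PIP5K1B 1 pair was at -0.26 and -0.13 and the other 4 arrays between 0.26 and 0.42. Fibroblast markers were at 0.03 and -0.14 in that pair and at -0.59 or lower in the other 4 arrays. Skeletal muscle markers were at 1.08 and 3.70 in the pair against -1.44 to -0.72. Macrophage markers were at -0.37 and -0.10 against -0.10 to 0.64, and T and NK cell markers at -0.17 and -0.30 against -0.16 to 0.17. Endothelial markers, at -0.27 in both arrays of the pair, lay inside the range of the other 4 (-0.97 to -0.17), as did epithelial and B cell markers. Within ErbB3 1 pair was at -0.26 and -0.42, in arrays whose epithelial markers were at -1.26 and -0.30, fibroblast markers at 0.62 and 0.91, endothelial markers at 0.85 and 0.71 and T and NK cell markers at 0.97 and 1.03, the highest of all arrays. T2 replicate 1 of ErbB3 had epithelial markers at -1.05 and a mean of these genes of 0.01. In FAK1 1 pair was at -0.30 and -0.23 and the other at 0.17 and 0.12. The low FAK1 pair had fibroblast markers at 0.43 and 0.38 against -1.52 and -1.40 in the other pair, macrophage markers at 0.54 and 0.69 against -1.12 and -0.80, endothelial markers at 0.04 in both arrays against -1.40 and -1.10, and T and NK cell markers at 0.60 and 0.55 against -0.36 and -0.34. The part of cell makeup in these low values was not tested. In PIP5K1B, ErbB3 and FAK1 the pairs thus differed by more than the means of those 10 groups did.

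**Figure D2:**
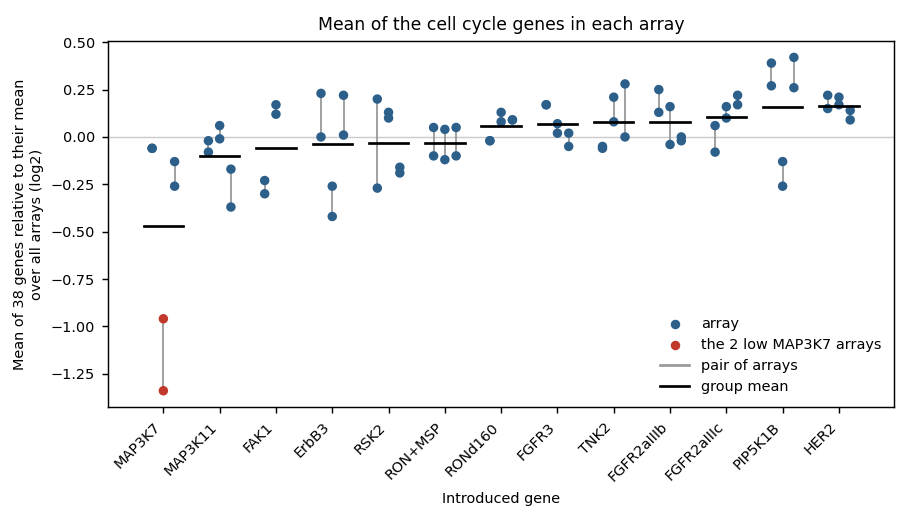
Mean of the 38 cell cycle genes in each array, each gene taken relative to its mean over all 76 arrays (log2), by introduced gene; grey lines join the arrays of a pair and black lines are group means. Apart from the 2 low MAP3K7 arrays (red, -0.96 and -1.34), all arrays lie between -0.42 and 0.42.

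Across the 76 arrays, the correlation of a gene with the mean of the other genes had a median of 0.87, and without the 2 low MAP3K7 arrays a median of 0.765 over 74 arrays. These are descriptions, since arrays of a group and of a pair share their source. Ccnb2, cyclin B2, which with Cdk1 drives entry into mitosis, followed the others most closely (0.95, and 0.88 without the 2 arrays). Ccne1 did so least (0.04, and -0.10 without them), and Ccnd1 went from 0.28 to 0.64 when the 2 arrays were left out. E2f1 (0.61) and Mybl2 (0.65), both transcription factors of the cycle, lay between.

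In the MAP3K7 group most of these genes were low in a single pair of arrays. The mean of the 38 genes was -0.96 in T1 replicate 2 and -1.34 in T3 replicate 1, and -0.06, -0.06, -0.26 and -0.13 in the other 4 arrays. For 32 of the 38 genes both arrays of the pair lay below every one of the other 74 arrays, a position held by 465 of all genes tested (3.35%). The mean of the pair was lower than that of the other 74 by 1 log2 unit or more for 31 of the genes and for 3.39% of all genes, while 3.93% of all genes were higher by that much. The median difference was -1.28 for the 38 genes, -1.07 for the 88 other cell cycle genes, of which 58 lay below all other arrays, and -0.04 for all genes. Because the pair was singled out for its low values, these numbers describe it and are not tested.

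The differences were largest among genes of the mitotic spindle and its checkpoint. Kif23, a motor protein of the central spindle needed for cytokinesis, was at 7.52 and 7.30 in the pair, against 8.48 to 9.45 (median 9.06) in the other 74 arrays. Melk, a kinase of dividing cells, was at 7.60 and 7.22 against 8.22 to 9.50 (median 9.07). Kif20a, a second motor of cytokinesis, was at 7.74 and 7.22 against 8.04 to 10.21 (median 9.09). All 3 were lower in the pair by 1.62 to 1.64 log2 units, with a clear gap below the other arrays. Ttk, the kinase that starts the spindle checkpoint, was at 7.44 and 7.07 against 7.92 to 9.39 (median 8.89). Bub1b, which holds back the anaphase-promoting complex until all chromosomes are attached, was at 7.64 and 7.03 against 8.33 to 9.37 (median 8.94). Mki67, the Ki-67 protein that coats mitotic chromosomes and serves as the standard histological marker of cycling cells, was at 9.82 and 9.62 against 10.65 to 11.29 (median 11.04). The T3 array was the lowest of all 76 for 34 of the 38 genes, so the 2 arrays differed in degree.

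The 6 exceptions were genes of G1, S phase and replication. Mcm4 (9.51 and 8.86, lowest other array 9.27), Mcm6 (10.27 and 9.83, lowest other 10.24), E2f1 (7.95 and 7.28, lowest other 7.63) and Pcna, the replication clamp (11.98 and 11.66, lowest other 11.76), were low in the T3 array and within the others' range in the T1 array. Ccne1 was at 7.91 and 7.72, inside the range of the other arrays, which began at 7.47. Ccnd1 went the other way: it was at 12.55 and 12.33 in the pair, above the median of 12.16 of the other 74 arrays, and at 11.44 to 11.68 in the other 4 MAP3K7 arrays. In this group Ccnd1 was therefore highest in the arrays in which the mitotic genes were lowest.

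**Figure D3:**
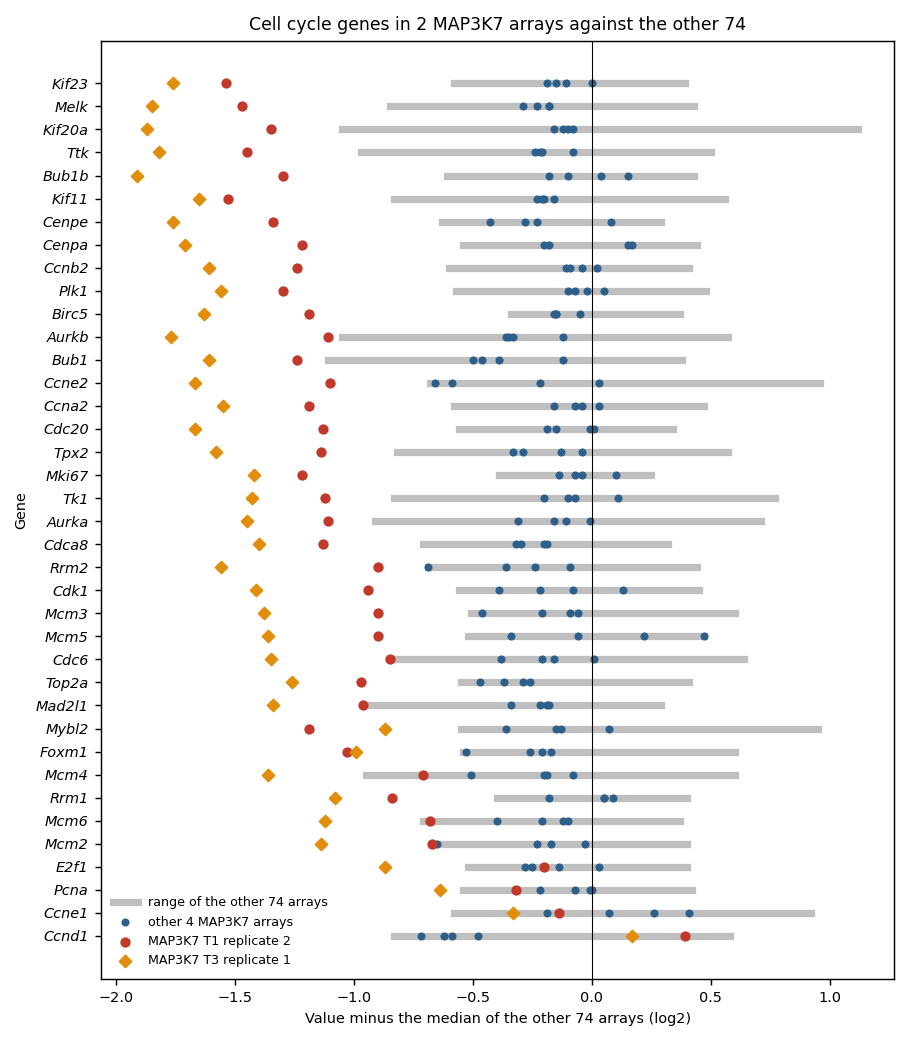
Each cell cycle gene in the 2 low MAP3K7 arrays (red circles, T1 replicate 2; orange diamonds, T3 replicate 1) and in the other 4 MAP3K7 arrays (blue), as log2 value minus the median of the other 74 arrays, whose range is the grey bar. For 32 of the 38 genes both low arrays lie left of the bar, Kif23 has the largest difference (-1.64), and Ccnd1 lies to the right of its median.

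Measures of RNA quality and cell makeup in the pair were as follows. The difference between the 3' and 5' probe sets of Gapdh was -0.13 and 0.00, within the -0.26 to 0.23 of the other 74 arrays, that of Actb was 0.28 and 0.36, within 0.15 to 0.54, and the array medians were 5.54 and 5.56. The means of the epithelial markers were -0.48 and -0.43 (other arrays -1.26 to 0.94), of fibroblast markers 0.42 and 0.67, of skeletal muscle markers -1.95 and -1.90, of macrophage markers -0.21 and -0.20, of endothelial markers -0.46 and -0.23, of T and NK cell markers -0.03 and 0.14, and of B cell markers 0.08 and 0.19. Both arrays lay below all others for 1 of 9 epithelial markers, the adhesion protein Cdh1, which was at 3.73 and 3.97 against 4.18 to 8.91 (median 7.19). Both lay above all others for 1 of 6 T and NK cell markers, and in neither position for any marker of the other 5 lists. The keratin Krt8 (11.83 and 11.70) was inside the range of the other arrays. The part of cell makeup in the low values was not tested.

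Tested against the mean of the other 12 groups with all 6 arrays, the MAP3K7 group was lower for 32 of the 38 genes (84.2%) and higher for 0 by limma at an adjusted p under 0.05, where 4.14% of all genes tested were lower; 37 of the 38 (97.4%) had an unadjusted p under 0.05, against 22.6% of all genes. With array weights 6 genes were called, and with the arrays of each pair averaged 16. The median difference was -0.52 log2 units, and 0 for all genes. All 8 mitotic cyclins, kinases and their transcription factors fell, as did all 5 genes of the spindle checkpoint and its target Cdc20, the 4 spindle genes and the 7 chromosomal passenger, centromere and chromosome genes, but 5 of 7 replication licensing genes, 2 of 3 genes of deoxynucleotide synthesis and 1 of 4 G1 and S regulators.

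The largest difference was that of Ccne2, cyclin E2, which was at 5.46 and 6.03 in the low pair and at 6.47 to 7.16 in the other 4 arrays (difference -0.73, SE 0.20, limma adjusted p = 0.0149). Bub1, a checkpoint kinase, was at 7.97 and 8.34 in the pair and at 9.08 to 9.46 in the others (difference -0.71, SE 0.15, limma adjusted p = 0.00166). Melk was at 7.22 and 7.60 against 8.78 to 8.89 (difference -0.67, limma adjusted p = 0.0027). In each of the 3 genes the pair was lowest, and without it the differences were -0.39, -0.35 and -0.18, none of them called. Aurkb, the kinase of the chromosomal passenger complex, was at 7.08 and 7.74 against 8.49 to 8.73 within the group (difference -0.65, limma adjusted p = 0.00562), and Ttk at 7.07 and 7.44 against 8.65 to 8.81 (difference -0.65, limma adjusted p = 0.00452). The genes that did not pass were Mcm5 (-0.33), E2f1 (-0.31), Rrm1 (-0.31), Ccnd1 (-0.29), Pcna (-0.21) and Ccne1 (0.03). Of the 88 other cell cycle genes 56 were lower and 0 higher, with 69 at an unadjusted p under 0.05. Of all genes tested 4.14% were lower and 22.6% had such an unadjusted p. Ect2 (-0.91) and Anln (-0.88), both of cytokinesis, and the repressor E2f8 (-0.83) led them.

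Without the 2 arrays, 1 of the 38 genes (2.63%) was lower in MAP3K7 than in the other 12 groups, against 1.19% of all genes. That gene was Ccnd1, one of the 6 that had not passed with all arrays: its difference was -0.58 (SE 0.12, limma adjusted p = 0.00229). The median difference of the 38 genes became -0.16, with 0.01 for all genes. Among the other cell cycle genes 4 of 88 were lower. Among the genes not called, the differences ran from -0.39 in Ccne2 to 0.14 in Ccne1. Bub1 (-0.35, limma adjusted p = 0.203), Top2a (-0.33, adjusted p = 0.0875) and Mki67 (0.00, adjusted p = 0.995) lay between.

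Against the group into which HER2 was introduced, MAP3K7 was lower for 34 of the 38 genes (89.5%) where 10.2% of all genes were lower, with a median difference of -0.66. With each pair averaged 22 genes were called, with array weights 20, and in a fit of these 2 groups alone 1. The HER2 arrays were close together and the MAP3K7 arrays far apart. Ccne2 was at 7.47 to 8.09 (median 7.49) in HER2 and at 5.46 to 7.16 (median 6.51) in MAP3K7, so the groups did not overlap (difference -1.18, SE 0.27, limma adjusted p = 0.00134). Bub1 was at 9.70 to 9.85 (median 9.76) against 7.97 to 9.46 (median 9.10), again without overlap (-0.90, limma adjusted p = 0.000927). Kif11, the motor that separates the spindle poles, was at 7.87 to 8.07 (median 7.95) against 6.11 to 7.60 (median 7.54; difference -0.87, limma adjusted p = 0.00139). Aurkb was at 8.92 to 9.16 against 7.08 to 8.73 (median 8.50; difference -0.84, limma adjusted p = 0.00336). Foxm1, the transcription factor of G2 genes, was at 8.14 to 8.56 (median 8.24) against 6.96 to 7.82 (median 7.59; difference -0.83, limma adjusted p = 0.000176). For all 5 genes every MAP3K7 array lay below every HER2 array, and the share of all genes in that position was not counted.

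Without the 2 arrays 5 of the 38 genes (13.2%) were lower in MAP3K7 than in HER2, against 6.87% of all genes: Ccne2 (-0.84, limma adjusted p = 0.0312), Ccnd1 (-0.78, adjusted p = 0.000226), Foxm1 (-0.58, adjusted p = 0.0103), Bub1 (-0.54, adjusted p = 0.0486) and Top2a (-0.44, adjusted p = 0.0283). The median difference was -0.28. The comparisons with HER2 and with the other 12 groups share the MAP3K7 arrays and the HER2 arrays.

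In the MAP3K11 group, the group labelled with cachexia, some of these genes were higher and others lower. Cyclin E1 and 3 genes of mitotic entry and the spindle, Mybl2, Aurka and Tpx2, were higher than the mean of the other 12 groups, by 0.41 to 0.67 log2 units. Cyclin D1, 3 replication genes (Mcm6, Mcm2 and Pcna), thymidine kinase (Tk1), the checkpoint genes Ttk and Mad2l1, the motor Kif11 and Aurkb were lower, by 0.24 to 0.58. By limma at an adjusted p under 0.05 these were 4 higher (10.5%, against 17.3% of all genes) and 9 lower (23.7%, against 22.1% of all genes), so the share of higher genes was below that of all genes and the share of lower genes near it. The median difference was -0.13, and -0.01 for all genes. With array weights 21 genes were called and without the pair block 21, with the share of all genes not counted in either fit. In these arrays the mean of the epithelial markers was at the high end, 0.43 to 0.94 (other 70 arrays -1.26 to 0.69). That of skeletal muscle markers was at the low end, -1.96 to -1.72 (other 70 arrays -1.95 to 3.88). The means of fibroblast markers, 0.35 to 0.74, and of endothelial markers, 0.24 to 0.59, lay inside the range of the other 70 arrays. Those ranges were -1.52 to 0.91 and -1.40 to 1.02. The 3' minus 5' difference of Gapdh was -0.04 to 0.23 against -0.18 to -0.06 in HER2, and that of Actb 0.26 to 0.50 against 0.15 to 0.27. With the muscle mean as a covariate 13 genes were called; the part of the other measures in the gene differences was not tested.

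Among the 4 regulators of G1 and S phase, the cyclins moved in opposite directions. Ccne1 (chr7:38097984-38107490, GRCm38.p6) was at 8.46 to 8.97 (median 8.63) in the MAP3K11 arrays and at 7.47 to 8.46 (median 8.02) in the other 70 (difference 0.67, SE 0.12, limma adjusted p = 1.07e-05). The ranges met at a single array of another group. Ccnd1 (chr7:144929931-144939831) was at 11.33 to 11.84 (median 11.57) against 11.44 to 12.74 (median 12.19; difference -0.58, SE 0.11, limma adjusted p = 2.05e-05), and 63 of the other 70 arrays lay above all 6. Both genes lie on chromosome 7. A second probe set of Ccne1 differed by 0.58, and further probe sets of Ccnd1 by -0.72 and -0.70. E2f1 (0.25, limma adjusted p = 0.0609) and Ccne2 (-0.23) did not pass.

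All 7 genes of replication licensing and the clamp had negative differences, with a median of -0.29. Of these 7, 3 fell, where 22.1% of all genes tested did. Mcm6 (chr1:128331575-128359705) was at 10.24 to 10.57 (median 10.48) against 9.83 to 11.32 (median 10.97) in the other 70 arrays (difference -0.49, SE 0.11, limma adjusted p = 0.000271). The 2 low MAP3K7 arrays (10.27 and 9.83) were at or below that level. Mcm2 differed by -0.43 (9.49 to 9.71, median 9.63, against 8.94 to 10.48, median 10.09; limma adjusted p = 0.00077) and Pcna differed by -0.24 (adjusted p = 0.0187). Mcm5 (-0.32, adjusted p = 0.0503) just missed the threshold. In deoxynucleotide synthesis 1 of 3 genes fell: Tk1, thymidine kinase, was at 9.35 to 9.92 (median 9.74) against 8.75 to 10.95 (median 10.22; difference -0.49, SE 0.16, limma adjusted p = 0.00914). Rrm1 differed by -0.02 with the probe set used and by -0.61 with another, so its probe sets disagree.

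Of the 8 mitotic cyclins, kinases and their transcription factors 2 rose and 0 fell, where 17.3% of all genes tested rose and 22.1% fell. The median difference of the 8 was 0.02. Mybl2 (chr2:163054327-163084688), or B-MYB, which activates genes of G2 and mitosis, was at 6.76 to 7.51 (median 7.06) in MAP3K11 and at 5.37 to 7.35 (median 6.52) elsewhere (difference 0.59, SE 0.16, limma adjusted p = 0.00151). Aurka (chr2:172356190-172370886), the kinase of centrosomes and spindle poles, was at 9.36 to 10.08 (median 9.78) against 7.92 to 9.77 (median 9.36; difference 0.45, SE 0.14, limma adjusted p = 0.007). Tpx2 (chr2:152847964-152895321), which activates Aurora A on the spindle, was at 9.40 to 10.06 (median 9.91) against 7.91 to 9.74 (median 9.47; difference 0.41, SE 0.13, limma adjusted p = 0.00988). The upper part of the MAP3K11 range lay above every other array for these 3 genes, and the lower part overlapped. A second Aurka probe set, dim at a mean of 4.69, differed by -0.01. Mybl2, Aurka and Tpx2 all lie on chromosome 2, which was noticed after their values were seen. So does E2f1 (0.25, not called), and so do Pcna, Bub1 and Bub1b, with differences of -0.24, -0.09 and -0.24. The other genes tested within 5 Mb of Mybl2, E2f1, Tpx2 and Aurka had median differences of 0.05, 0.05, 0.04 and 0.02, in that order. All 1097 genes tested on chromosome 2 had a median of 0.

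The spindle checkpoint and spindle genes were split. Within MAP3K11, T3 replicate 2 stood below the rest of the group. It was at -0.53 for the mean of the checkpoint genes (rest of the group -0.20 to 0.02) and at -0.57 for the spindle genes (-0.16 to 0.13). When each array was left out in turn, Ttk and Kif11 stayed called in all 76 fits, Mad2l1 in 75 and Aurkb in 74. Ttk (-0.45, limma adjusted p = 0.0143) and Mad2l1 (-0.35, adjusted p = 0.0182) fell among 5 checkpoint genes, and Kif11 (-0.43, adjusted p = 0.0146) among the 4 spindle genes, where Tpx2 rose. Of the 7 chromosomal passenger, centromere and chromosome genes 1 fell, Aurkb (-0.43, adjusted p = 0.0212), so the 2 Aurora kinases moved in opposite directions. Top2a differed by -0.24 (adjusted p = 0.0601) with the probe set used and by -0.93, as a plain difference of group means, with a dimmer one. No gene of the 38 separated the MAP3K11 arrays from all other 70, and this was not counted for all genes. Of the 88 other cell cycle genes 7 rose and 22 fell, where 17.3% of all genes tested rose and 22.1% fell. The largest differences among them were those of E2f8 (-1.47), the DNA polymerase alpha subunit Pola1 (-0.97) and the kinetochore gene Cenpk (-0.81).

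**Figure D4:**
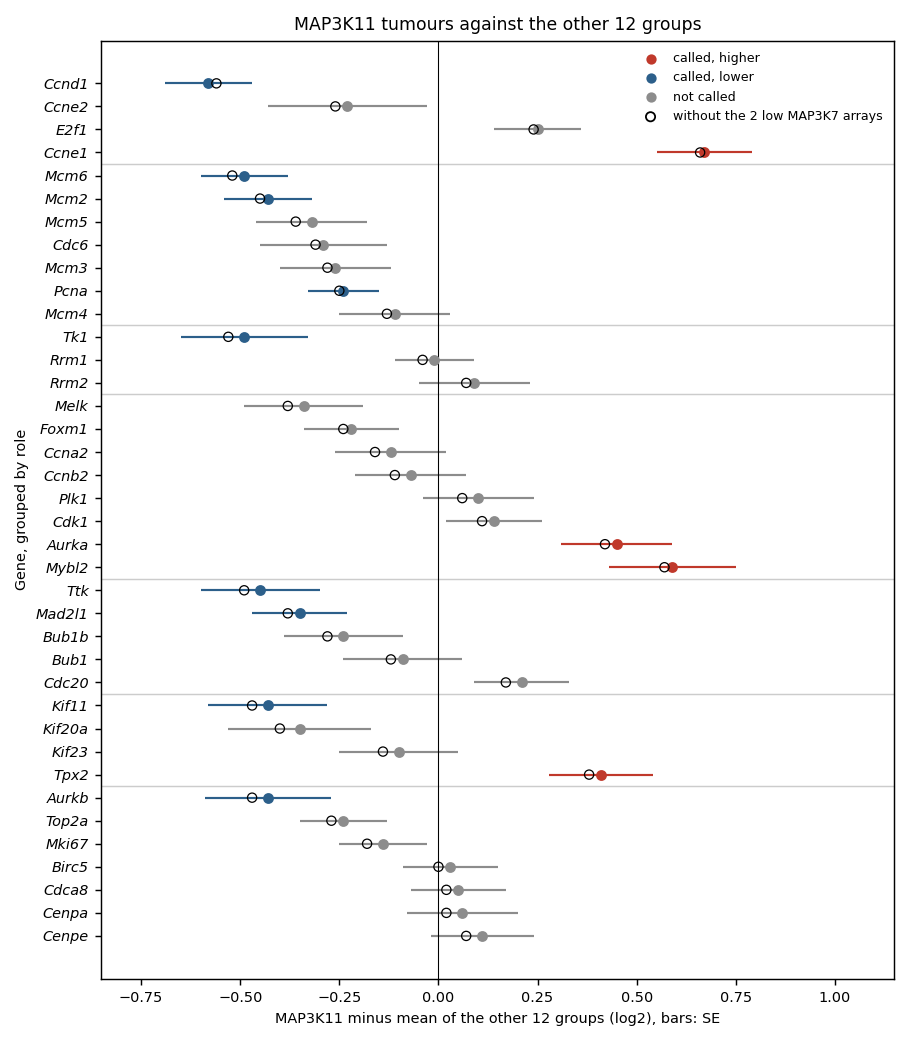
Difference of the MAP3K11 group from the mean of the other 12 groups for each cell cycle gene (log2, bars are SE), grouped by role and coloured by limma call; open circles leave out the 2 low MAP3K7 arrays. All replication licensing genes lie below 0, and Ccne1 (0.67) and Ccnd1 (-0.58) mark the extremes.

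Leaving the 2 low MAP3K7 arrays out of the comparison groups left these 13 genes called in the same direction and added 7. The counts became 5 higher (13.2%, against 18.4% of all genes) and 15 lower (39.5%, against 23.6%). E2f1 (0.24) joined the higher genes, and Mcm3, Mcm5, Melk, Bub1b, Kif20a and Top2a, with differences of -0.27 to -0.40, the lower ones. The median difference was then -0.17.

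Against HER2, MAP3K11 was higher for 1 gene (2.63%, against 13.9% of all genes) and lower for 12 (31.6%, against 19.4% of all genes), with a median difference of -0.33. Without the pair block, and in a fit of these 2 groups alone, 20 genes were called, with the share of all genes not counted. Ccnd1 was at 12.22 to 12.54 (median 12.32) in HER2 and at 11.33 to 11.84 (median 11.57) in MAP3K11 (difference -0.76, limma adjusted p = 6.87e-05). Ccne1 was at 7.73 to 8.08 (median 7.96) against 8.46 to 8.97 in MAP3K11 (difference 0.73, limma adjusted p = 0.000486). Ccne2 was at 7.47 to 8.09 against 6.45 to 7.22 (median 6.96; difference -0.73, limma adjusted p = 0.0303). The groups did not overlap for any of these 3 cyclins, and the E cyclins differed in opposite directions. Kif11 was at 7.87 to 8.07 against 6.93 to 7.50 (median 7.32; difference -0.68, limma adjusted p = 0.00532), and Ttk at 8.99 to 9.12 (median 9.05) against 7.92 to 8.70 (median 8.45; difference -0.64, limma adjusted p = 0.0119). The other genes that fell were Aurkb, Mcm2, Tk1, Mcm6, Mad2l1, Foxm1, Pcna and Top2a, by 0.38 to 0.64 log2 units. In all, the MAP3K11 arrays lay below all HER2 arrays for 19 of the 38 genes, above them for 1 and overlapped for 18. The share of all genes that separated in this way was not counted, so these counts describe the list only. Aurka (0.14), Tpx2 (0.27) and Mybl2 (0.39), which rose against the other 12 groups, did not pass against HER2. Of the other cell cycle genes 1 rose and 26 of 88 fell.

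Between the 2 kinases of the MAP3K family, MAP3K11 was higher than MAP3K7 for 14 of the 38 genes (36.8%) and lower for 0 by limma, where 8.8% of all genes were higher; 17 of the 38 (44.7%, against 32.6% of all genes) had an unadjusted p under 0.05 and the median difference was 0.33. With array weights 8 genes were called, and in a fit of these 2 groups alone 1. Mybl2 was at 6.76 to 7.51 against 5.37 to 6.63 (median 6.30; difference 0.99, SE 0.21, limma adjusted p = 0.000308). Tpx2 was at 9.40 to 10.06 against 7.91 to 9.45 (median 9.18; difference 0.91, limma adjusted p = 0.00011). Aurka was at 9.36 to 10.08 against 7.92 to 9.36 (median 9.14; difference 0.89, limma adjusted p = 0.000276). Mybl2, Aurka and E2f1 were the genes for which the 2 groups did not overlap, Aurka by a narrow margin, and the Tpx2 ranges overlapped slightly. How many of all genes separated these 2 groups was not counted. Cenpe, a kinetochore motor, was at 9.15 to 9.43 (median 9.32) against 7.54 to 9.38 (median 8.94; difference 0.66, limma adjusted p = 0.00381). Cdc20, the activator of the anaphase-promoting complex, was at 10.55 to 10.92 (median 10.73) against 8.95 to 10.63 (median 10.45; difference 0.64, limma adjusted p = 0.00211). For these last 2 genes the upper MAP3K7 arrays reached the MAP3K11 range. No replication licensing gene was called (median difference 0.01), while 4 of 8 mitotic cyclin and kinase genes and 4 of 7 chromosomal passenger, centromere and chromosome genes were.

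Without the 2 low arrays 5 of these genes (13.2%, against 9.94% of all genes) were higher in MAP3K11: Mybl2 (0.69, limma adjusted p = 0.0112), Tpx2 (0.52, adjusted p = 0.0132), Aurka (0.50, adjusted p = 0.0292), Ccne1 (0.48, adjusted p = 0.044) and E2f1 (0.38, adjusted p = 0.038). These are the 5 genes whose highest group mean was in MAP3K11. The median difference was then -0.01. Of the 88 other cell cycle genes, 32 were higher and 2 lower with all arrays, and 6 higher and 10 lower without the pair.

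In the other 11 groups few or none of these genes were called. In HER2, 37 of the 38 differences from the other 12 groups were above 0 (median 0.18), but 1 gene rose (2.63%, against 5.91% of all genes): Foxm1, at 8.14 to 8.56 (median 8.24), with a difference of 0.34 (SE 0.12, limma adjusted p = 0.0491). It was called in 24 of the 76 fits that each left out 1 array. In PIP5K1B all 38 differences were above 0 (median 0.18) and 1 gene rose (2.63%, against 2.37% of all genes). This was Kif20a, at 9.56, 8.84, 9.89, 10.21, 9.04 and 9.97 in the 6 arrays, with the low pair of that group again lowest (difference 0.58, SE 0.18, limma adjusted p = 0.0453). Unadjusted p-values under 0.05 numbered 8 in HER2 (21.1%, against 24.7% of all genes) and 4 in PIP5K1B (10.5%, against 18.8%), shares below those of all genes.

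In the other 9 groups limma called 0 of the 38 genes. The share of all genes called in either direction was 11.9% in ErbB3, 8.73% in RONd160, 2.59% in RSK2, 1.91% in FGFR2aIIIb, 0.808% in FAK1, 0.461% in RON+MSP, 0.0937% in TNK2, 0.0721% in FGFR2aIIIc and 0% in FGFR3. An unadjusted p under 0.05 was found for 3 of the 38 genes (7.89%) in RONd160 and in FGFR2aIIIb, against 21.9% and 14.7% of all genes, and for 1 gene (2.63%) in ErbB3, RSK2, FAK1, RON+MSP and FGFR3, against 25.8%, 18.7%, 12.5%, 12.4% and 8.12%. It was found for 0 in TNK2 and FGFR2aIIIc, against 11.1% and 6.61%. In each of these 9 groups the share of the 38 genes was below that of all genes. ErbB3 and RONd160 thus had many called genes elsewhere and none here. The differences of the 38 genes lay between -0.26 and 0.34 in ErbB3 and between -0.17 and 0.33 in RONd160.

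**Figure D5:**
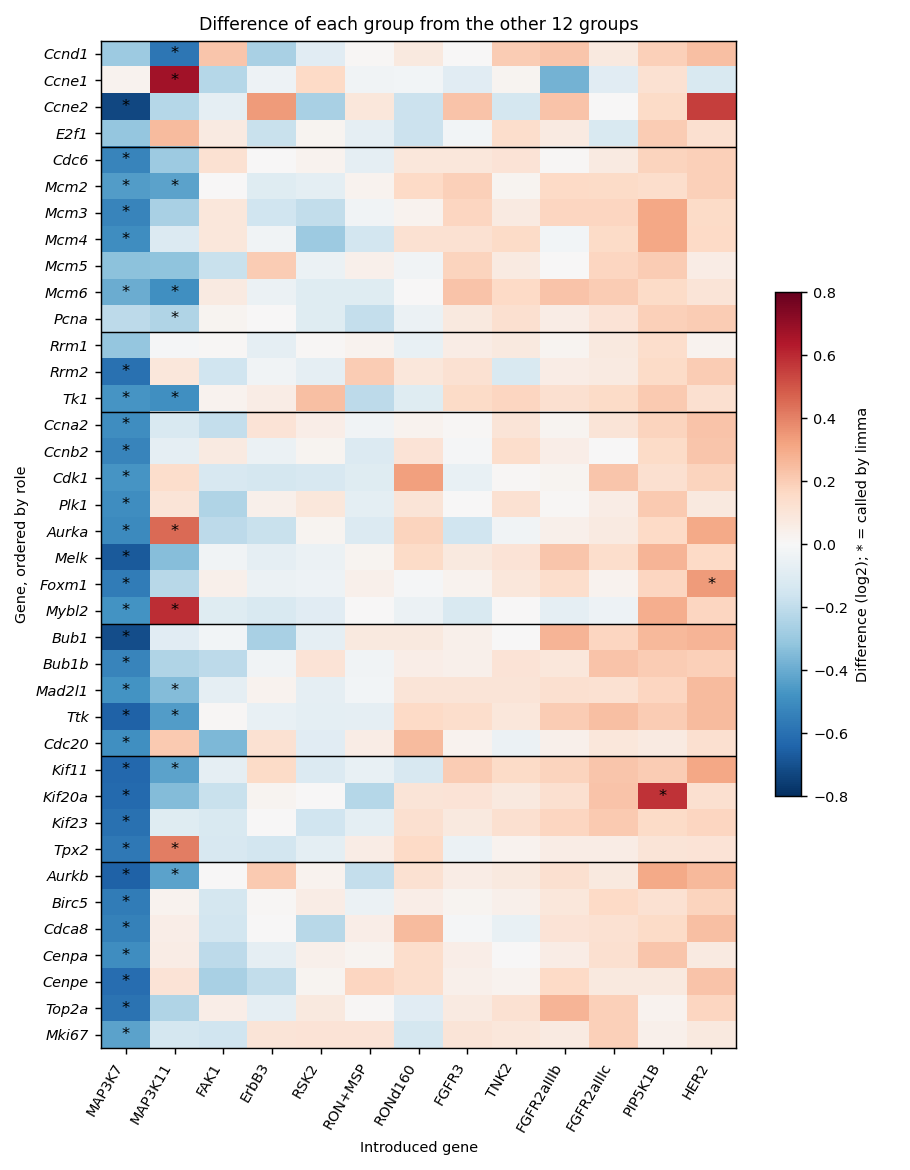
Difference of each group from the mean of the other 12 groups (log2, colour) for the 38 cell cycle genes ordered by role; stars mark genes called by limma. The MAP3K7 column holds 32 lower genes, MAP3K11 holds 4 higher and 9 lower, HER2 and PIP5K1B hold 1 higher each, and the other 9 columns hold 0 stars.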

How the data were processed

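The deposited files hold log2 values, 1 for each of 45101 probe sets on each of 76 Affymetrix arrays. The authors made them with affy, per the submitters' processing notes; background correction, normalization and version are not given in the sources used here. Of the probe sets, 34958 name 1 gene, 932 several and 9211 none, and 34754 matched a RefSeq table of GRCm38.p6. The probe set of highest mean stood for its gene, and 13868 genes above the 40th percentile of an array in at least 4 arrays were tested. limma 3.58.1 (R 4.3.3, statmod 1.5.0) fitted the introduced gene and the T label over all arrays, with 61 residual degrees of freedom. Array pairs, inferred from the data by matching autosome medians (13374 genes), entered as a random block, and p-values were two-sided and adjusted by the Benjamini-Hochberg method over all genes tested; called means an adjusted p under 0.05. The "other 12 groups" have equal weight. The script was tested on simulated data. The number of arrays limits the precision. All list members may be named; array values are given for up to 5 called members of largest difference per comparison and for the 5 largest and 5 smallest F statistics. Marker lists are means relative to all arrays. Members and lists were chosen with earlier results of these data known, and the low pair of MAP3K7 arrays was known in advance. Alternatives changed the block, the T term, normalization, filter, probe set rule, array weights, variance prior, a muscle covariate and arrays used. No columns were left unused.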

Additional observations from a re-analysis of the deposited data

How the results depend on the processing

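The counts of called genes below are out of 38, by limma. For most of these fits the share of all genes called was not counted, so a changed count does not set these genes apart. Without the block of array pairs they were 1 in ErbB3, 2 in FGFR2aIIIb, 4 in HER2, 21 in MAP3K11, 4 in PIP5K1B, 1 in RON+MSP, 3 in RONd160 and 20 for MAP3K11 against HER2. With a replicate block on the label numbers in place of the pairs they were 1, 2, 7, 20 and 3 in ErbB3, FGFR2aIIIb, HER2, MAP3K11 and PIP5K1B, 1 each in RONd160 and RSK2, and 20 for MAP3K11 against HER2. With each pair averaged they were 6 in the F test, 0 in HER2, 16 in MAP3K7, 0 in PIP5K1B and 22 for MAP3K7 against HER2. Without the T term, with quantile normalization and with median centring, HER2 and PIP5K1B each had 0; under centring the mean of the genes in HER2 was 0.21. Without the filter there was 1 in FGFR2aIIIb and 3 in HER2, and with the mean of all probe sets 0 in HER2, where Aurka in MAP3K11 also missed the threshold (0.22, adjusted p = 0.157). With array weights there were 3 in FGFR2aIIIb, 5 in HER2, 21 in MAP3K11, 6 in MAP3K7, 14 in PIP5K1B, 3 in RONd160, 8 for MAP3K11 against MAP3K7 and 20 for MAP3K7 against HER2. Without the 2 low MAP3K7 arrays there were 14 in the F test, 20 in MAP3K11, 1 in MAP3K7, 1 each in FAK1, FGFR2aIIIb and RONd160, and 5 each for MAP3K11 against MAP3K7 and MAP3K7 against HER2. With only the 2 groups compared there was 1 for MAP3K11 against MAP3K7, 20 for MAP3K11 against HER2 and 1 for MAP3K7 against HER2. The cause of these changes was not tested, and some of these fits also had fewer arrays.

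Leaving out each array in turn gave 25 to 29 in the F test, 10 to 17 in MAP3K11, 22 to 35 in MAP3K7, 11 to 15 for MAP3K11 against MAP3K7, 12 to 14 for MAP3K11 against HER2, 27 to 35 for MAP3K7 against HER2, 0 to 2 in HER2, 0 to 1 in PIP5K1B and 0 in the other 9 groups. The PIP5K1B call was lost without T2 replicate 2, T2 replicate 3, T3 replicate 1 or T3 replicate 2 of that group, or T2 replicate 1 of FGFR2aIIIb; each left 0. In the alternatives other than these, 209 of 259 group-level values stayed within 1.5 times or 1 SD. Of 1357 differences of called genes, 1124 stayed called in the same direction and 0 reversed.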
